A study of Rattus norvegicus with 8 samples.

Results

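Transforming growth factor beta (TGF-beta) signalling genes were followed in the hearts of aged female rats across sham surgery, ovariectomy and 2 schedules of estradiol replacement. The set comprised the ligands Tgfb1, Tgfb2 and Tgfb3 and the receptors Tgfbr1, Tgfbr2 and Tgfbr3. It also held Ltbp2, of the family of latent TGF-beta binding proteins, and the target genes Ccn1 and Ccn2. Members were taken as every probe set annotated to exactly 1 of these gene symbols. This gave 11 of the 31042 probe sets that are not controls, for 8 of the 9 genes (of 14217 genes named by the array's annotation); Tgfb2, Tgfbr1 and Tgfbr3 had 2 probe sets each and the other 5 genes had 1. Tgfbr2, the type II receptor that binds the ligand, was not analysed here.

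TGF-beta ligands are secreted in a latent form, tethered to the matrix by latent TGF-beta binding proteins and released by proteases and integrins. The active dimer brings a type II and a type I receptor kinase together, the type I receptor phosphorylates Smad2 and Smad3, and these enter the nucleus with Smad4 to act at target promoters. In the heart the pathway is known as a driver of fibroblast activation and collagen synthesis, and Ccn2 (connective tissue growth factor) is among its best known targets.

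All rats were female, of the Norway Brown strain and 18 to 22 months old. The sham group had its body cavity opened and closed with no tissue removed and kept its ovaries. The Ovx group was ovariectomised, and no pellet is described for it. The early estradiol group was ovariectomised and received, at the same surgery, a 90-day slow-release pellet of 0.5 mg 17-beta estradiol under the skin of the neck. The late estradiol group was ovariectomised and received the same pellet 9 weeks later. RNA of 3 hearts was pooled in equal amounts for each array, and each group had 2 arrays (replicates 1 and 2), so that a p-value measures the spread between pools, which averages over animals and may be technical in part. Sources used here do not say whether a heart entered more than 1 pool. In whole-heart RNA, fewer cells of a type and less RNA per cell cannot be told apart.

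The deposited signals were not on a common scale. Their array medians ran from 13.3 to 26.5 on replicate 1 arrays and from 25.9 to 33.9 on replicate 2 arrays, and late estradiol replicate 1 was the dimmest array. This array also had a ratio of 3' to 5' Gapdh signal, a sign of RNA quality, of 2.70, against 1.26 to 1.65 on the other 7 arrays. Unless stated otherwise, values below are log2 signals after quantile normalization, which gives every array the same distribution, and errors of differences are limma's moderated standard errors (n = 2 arrays per group). Probe sets differ in their affinity, so levels are compared between groups for the same probe set and never between genes. The cardiomyocyte markers Myh6, Myh7, Tnnt2, Tnni3, Mb, Ryr2 and Pln, 7 of 8 listed, all had a probe set above the 99.4th percentile of mean signal, as whole heart should give. Their summed linear signal after normalization ran from 45309 to 48573 over the 8 arrays. Quantile normalization largely fixes such a sum at the top of the distribution, so its narrow range says little of cardiomyocyte content.

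The promoters of Ccn2, Ccn1, Ltbp2 and Tgfb3 are shown because the first pair are the direct targets in the set and the other pair are the members named below with a difference under late estradiol. Each line gives the 250 bases before the transcription start, 5′ to 3′ on the strand of the gene, from RefSeq on GRCr8. Capitals mark CAGAC (the box bound by Smad3 and Smad4), GGAATG (the element bound by TEAD factors, the partners of YAP) and TATAAA (the TATA box), each on either strand. Ccn2 lies at chr1:22624615-22624864, Ccn1 at chr2:237225690-237225939, Ltbp2 at chr6:110257299-110257548 and Tgfb3 at chr6:111456947-111457196, all on the minus strand.
Ccn2: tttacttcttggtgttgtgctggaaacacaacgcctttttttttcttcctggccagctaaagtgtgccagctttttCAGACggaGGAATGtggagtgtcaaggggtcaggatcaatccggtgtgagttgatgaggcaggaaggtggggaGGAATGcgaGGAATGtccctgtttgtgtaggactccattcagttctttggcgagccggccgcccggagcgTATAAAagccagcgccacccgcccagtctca
Ccn1: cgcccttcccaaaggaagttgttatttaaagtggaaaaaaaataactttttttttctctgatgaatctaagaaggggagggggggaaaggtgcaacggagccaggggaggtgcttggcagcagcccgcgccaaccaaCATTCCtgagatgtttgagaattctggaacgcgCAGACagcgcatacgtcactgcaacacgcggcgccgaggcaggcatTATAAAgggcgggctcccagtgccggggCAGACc
Ltbp2: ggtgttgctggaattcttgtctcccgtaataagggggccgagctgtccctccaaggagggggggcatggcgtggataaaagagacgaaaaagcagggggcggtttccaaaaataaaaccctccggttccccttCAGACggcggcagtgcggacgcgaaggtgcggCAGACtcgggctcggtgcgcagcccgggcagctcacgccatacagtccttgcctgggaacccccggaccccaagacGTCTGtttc
Tgfb3: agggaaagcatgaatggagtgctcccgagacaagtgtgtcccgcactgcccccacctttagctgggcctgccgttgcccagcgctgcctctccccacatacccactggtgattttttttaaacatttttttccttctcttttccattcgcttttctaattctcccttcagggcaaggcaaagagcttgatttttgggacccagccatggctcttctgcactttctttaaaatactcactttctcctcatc

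In the Ccn2 promoter, 3 GGAATG matches began 166, 101 and 92 bases before the start, with a CAGAC match at 174 and TATAAA at 31. Of 33469 promoters in the table, 12.1% held at least 1 GGAATG match in the same 250 bases and 0.0807% (27 promoters) held 3 or more. Ccn1 held 1 GGAATG match, read on the opposite strand at 113, with CAGAC at 80 and 6 and TATAAA at 34. Ltbp2 held 3 CAGAC matches, at 117, 85 and 9, the last on the opposite strand; 42.9% of promoters held at least 1 and 2.54% held 3 or more. TATAAA was found in 12.9% of promoters.

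The half-site of the estrogen response element, GGTCA, was found at 147 in Ccn2 and in none of the other 7 member promoters, against 35.4% of all promoters. A full estrogen response element and a CArG box (the element bound by serum response factor) were found in 0 of the 8, and in 8 and 501 of all 33469 promoters. The windows of Tgfb1, Tgfb2, Tgfb3, Tgfbr1 and Tgfbr3 held no match to any of these 6 motifs. None of the matches overlapped another. A match only describes the letters, and its absence says nothing of binding elsewhere.

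No member passed the test in any comparison. Of the 11 probe sets, 10 had a mean signal at or above the 40th percentile of all probe sets and were tested among 18625. In each of the 6 pairwise comparisons and in the F test over the 4 groups, 0 of 10 members had a Benjamini-Hochberg adjusted p under 0.05 (limma), where the background of all tested probe sets was likewise 0%. At an unadjusted p under 0.05 there were also 0 members in each pairwise comparison. That count was not stable: with 1 array left out it reached 1 or 2 in some comparisons, through Tgfb3 without late estradiol replicate 2, Tgfb1 without Ovx replicate 1, Ltbp2 without late estradiol replicate 1, and Ccn2 without Ovx replicate 2, either early estradiol array or late estradiol replicate 2. The background at that limit was 1.47% for Ovx against sham, 1.71% for early estradiol against Ovx and 4.36% for late estradiol against Ovx. It was 3.87% for late against early estradiol, 0.773% for early estradiol against sham and 3.37% for late estradiol against sham. The values below are therefore descriptions of where the arrays lay.

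**Figure D1:**
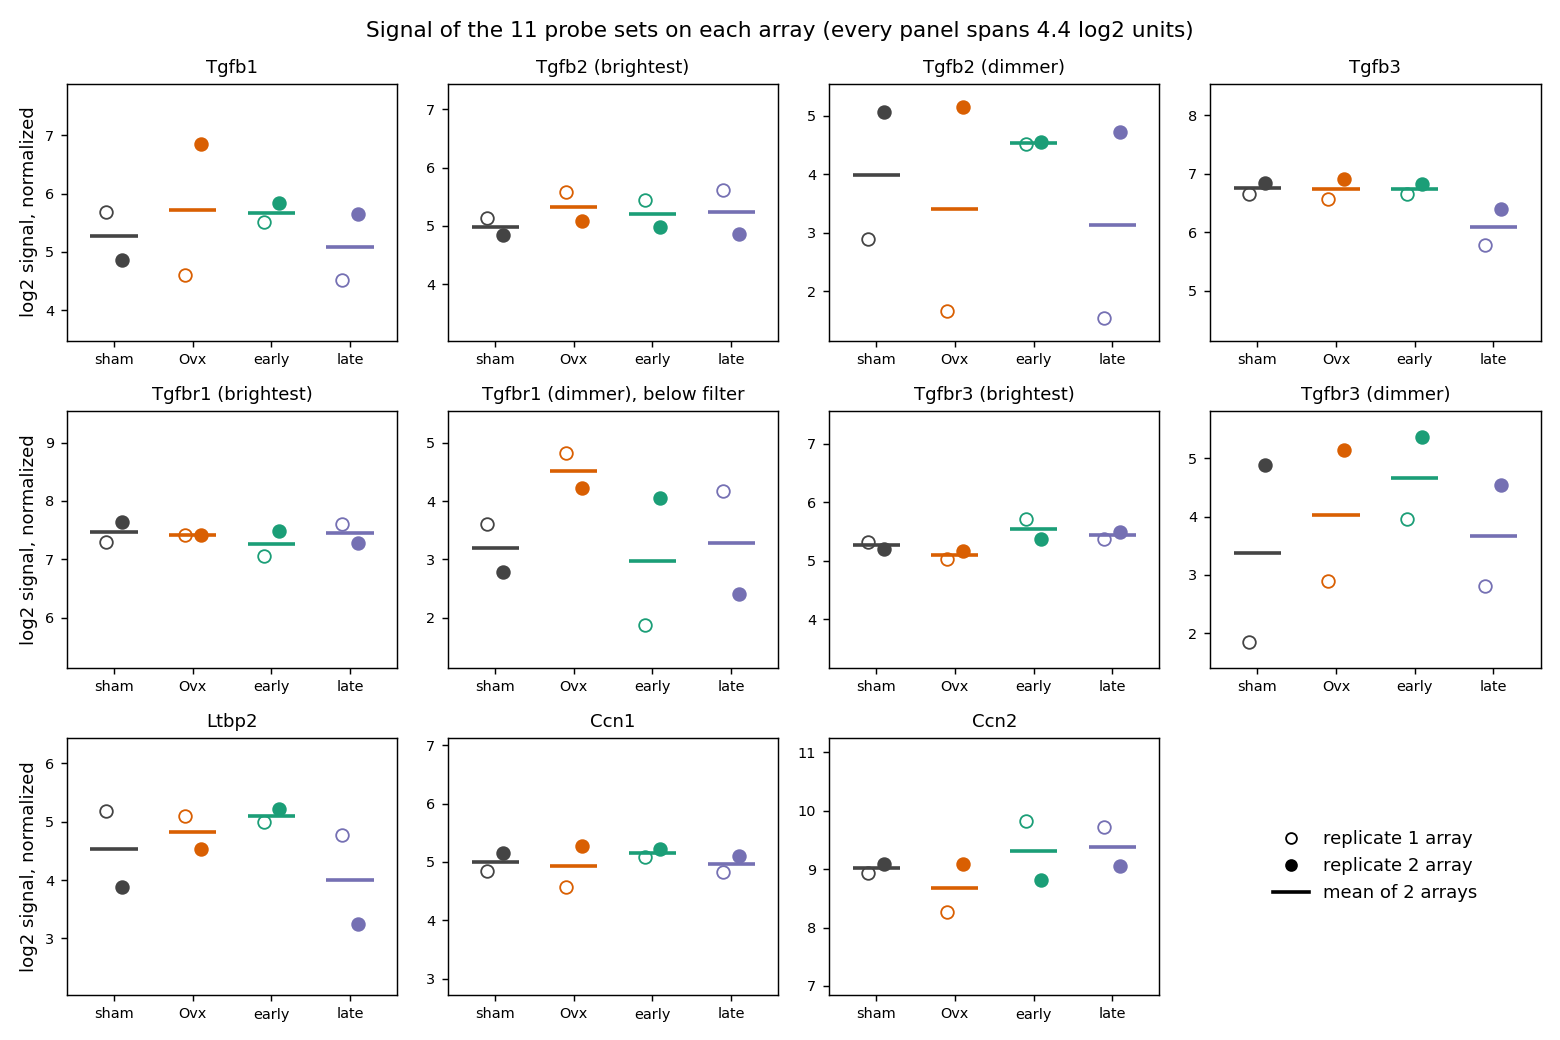
Log2 signal after quantile normalization (vertical axis) of the 11 member probe sets on each of the 8 arrays, by group (horizontal axis); open points are replicate 1 arrays, filled points replicate 2 arrays, and bars the mean of 2 arrays. Tgfb3 lies lowest on both late estradiol arrays, at 5.78 and 6.40, and the dimmer probe sets of Tgfb2 and Tgfbr3 separate more by replicate number than by group.

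Among the ligands, Tgfb3 had the clearest separation of groups. Tgfb3 encodes the isoform that signals through the same receptors as Tgfb1 and Tgfb2 and is known for its part in palate fusion. Its probe set (1367859_at) lay at percentile 80.1 of mean signal. The log2 signal was 6.65 and 6.85 on the sham arrays, 6.57 and 6.91 after ovariectomy, 6.66 and 6.82 with early estradiol, and 5.78 and 6.40 with late estradiol. Both late estradiol arrays lay below all 6 others, while the sham, Ovx and early estradiol arrays overlapped, with means of 6.75 ± 0.14, 6.74 ± 0.24 and 6.74 ± 0.12 (SD, n = 2 each) against 6.09 ± 0.44 for late estradiol.

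The Tgfb3 difference was -0.66 ± 0.30 for late estradiol against Ovx, a 1.57-fold lower signal, with a 95% interval from -1.33 to 0.02 (limma unadjusted p = 0.0552, adjusted p = 0.943). It was -0.65 ± 0.30 against early estradiol (adjusted p = 0.987) and -0.66 ± 0.30 against sham (adjusted p = 0.997); these 3 comparisons share the late estradiol arrays and are not independent. Within replicate number 1 the difference from Ovx was -0.80 and within replicate number 2 it was -0.51. The corresponding values were -0.88 and -0.42 against early estradiol, and -0.88 and -0.45 against sham.

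Late estradiol replicate 1, the dimmest array with the high Gapdh ratio, carried much of the size of the Tgfb3 difference. Without it the difference from Ovx was -0.35 ± 0.33, and without late estradiol replicate 2 it was -0.96 ± 0.32 (limma adjusted p = 0.272). On the deposited linear scale, Tgfb3 read 100.6, 54.35, 63.8 and 25.07 on the replicate 1 arrays of sham, Ovx, early and late estradiol, and 172.1, 199.5, 226.4 and 121.7 on the replicate 2 arrays. The late estradiol array was thus the lowest of its replicate number both times before any normalization, although on that scale the groups overlap. For replicate 1 this says little of Tgfb3, since late estradiol replicate 1 was the dimmest array. Among the only or brightest probe sets of the other members, it was the lowest replicate 1 array for all but Ccn2. These include Tgfbr1 (72.71), whose normalized late estradiol mean was not low.

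The summed signal of fibroblast markers was also lower on the late estradiol arrays. The summed linear signal of 8 of 8 fibroblast markers (Col1a1, Col1a2, Col3a1, Pdgfra, Tcf21, Dcn, Lum and Postn), all above the filter, was 3280 and 4250 on the late estradiol arrays. It was 4615 to 4980 in sham, 5946 to 6270 after ovariectomy and 4996 to 6064 with early estradiol. This linear sum is weighted towards its brightest genes, Dcn (mean log2 11.16) and Col3a1 (9.83). Col1a1, Col1a2, Col3a1 and Postn are also counted below as targets of TGF-beta, and Dcn as an inhibitor. The pattern of the sum need not hold for Pdgfra, Tcf21 and Lum, which were not summed apart. The part of these markers in the Tgfb3 difference was not tested. Endothelial markers (6 of 7 with a probe set, all above the filter) summed to 2688 on late estradiol replicate 1 and to 1803 on replicate 2, against 1664 to 2094 on the other 6 arrays.

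**Figure D2:**
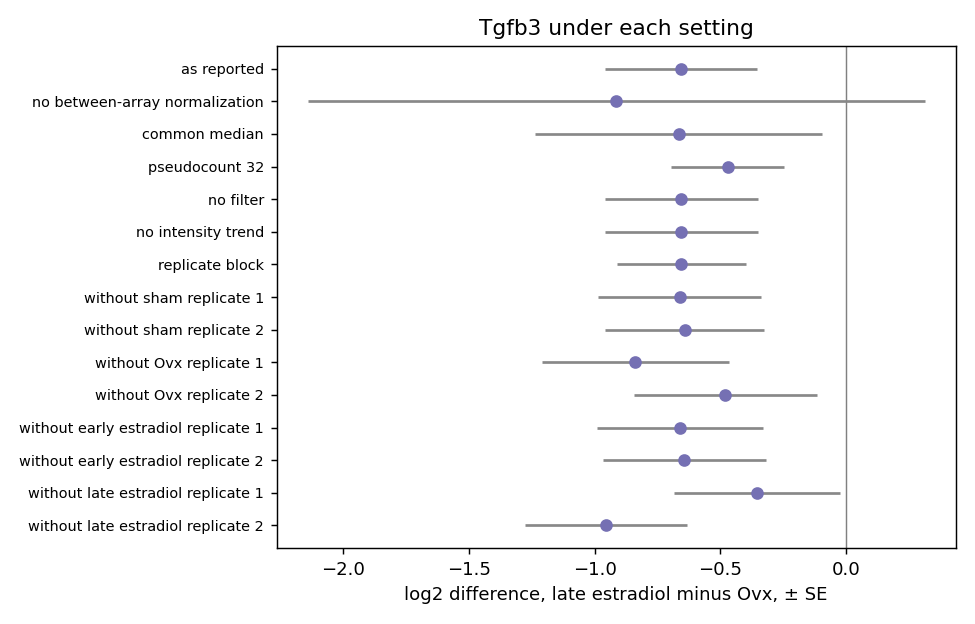
Log2 difference of Tgfb3 between late estradiol and Ovx (horizontal axis) with its moderated standard error, as reported and under 14 other settings (vertical axis). Every value is below 0, which is largely fixed by arrays that do not overlap. The smallest, -0.35, leaves out late estradiol replicate 1.

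Tgfb1, the most widely expressed isoform and the one tied most closely to fibrosis, varied more between the arrays of a group than between groups. Its log2 signal was 5.68 and 4.86 in sham, 4.60 and 6.84 after ovariectomy, 5.52 and 5.83 with early estradiol, and 4.52 and 5.64 with late estradiol. The highest array and the second lowest array were both from the Ovx group, whose SD was 1.59, and no pair of groups was free of overlap. Over the 6 comparisons the Tgfb1 differences ran from -0.64 to 0.45, each with a standard error of 0.69, so that neighbouring groups in the order Ovx, early estradiol, sham, late estradiol did not differ beyond their spread.

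The array with the highest Tgfb1 signal, Ovx replicate 2, also stood apart in the summed signal of macrophage markers. The summed linear signal of 8 of 8 macrophage markers (Cd68, Csf1r, Adgre1, Cd163, Mrc1, Fcer1g, Gpnmb and Cybb), all above the filter, was 3252 there, against 548 to 1224 on the other 7 arrays. This linear sum is weighted towards its brightest genes, such as Fcer1g (mean log2 8.09) and Gpnmb (7.43), and its pattern need not hold for each marker. Platelet markers, from cells that store TGF-beta, did not peak on that array: 4 of 5 had a probe set, Ppbp and Gp9 were below the filter, and their sum was 389.9 on Ovx replicate 2 and 653.0 on Ovx replicate 1, against 222.4 to 400.4 on the other 6. Their part in the Tgfb1 values was not tested. Leaving out Ovx replicate 2 moved Ovx from the highest to the lowest of the 4 group means of Tgfb1.

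Tgfb2, the isoform needed for formation of the heart valves and septa in the embryo, gave conflicting readings from its 2 probe sets. The brighter probe set (1388011_a_at, percentile 62.9) read 5.13 and 4.85 in sham, 5.57 and 5.09 after ovariectomy, 5.44 and 4.98 with early estradiol, and 5.63 and 4.86 with late estradiol. All 4 of its group pairs of arrays had the higher value on replicate 1. The dimmer probe set (1387172_a_at, percentile 41.1, just above the filter) read 2.88 and 5.07, 1.66 and 5.16, 4.52 and 4.54, and 1.55 and 4.72 in the same order, with the higher value on replicate 2 in every group.

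The 2 Tgfb2 probe sets ran opposite to each other, with Pearson's r = -0.79 over the 8 arrays, given as a description of arrays that share a split by replicate number. They gave the same sign in 2 of 6 comparisons. Differences ran from -0.12 to 0.34 with a standard error of 0.44 on the brighter probe set, and from -1.40 to 1.12 with a standard error of 1.38 on the dimmer, so that no order of the groups can be read for Tgfb2.

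Of the receptors, Tgfbr1 (also called ALK5, the type I receptor kinase) was the steadiest member. Its brighter probe set (1376636_at, percentile 87.9) read 7.29 and 7.63 in sham, 7.42 and 7.42 after ovariectomy, 7.05 and 7.49 with early estradiol, and 7.61 and 7.27 with late estradiol. All groups overlapped, and the 4 group means spanned 0.19. Differences ran from -0.19 to 0.17 with a standard error of 0.25, and the 95% interval of each reached 0.57 to either side, so smaller differences than that were not detectable with 2 arrays a group.

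The other Tgfbr1 probe set (1369504_at, percentile 36.8) was the only member below the filter and was not tested. It read 3.62 and 2.79 in sham, 4.82 and 4.22 after ovariectomy, 1.88 and 4.05 with early estradiol, and 4.17 and 2.40 with late estradiol, and agreed in sign with the brighter probe set in 3 of 6 comparisons. Both Ovx arrays lay above the other 6, at a level where the sham, early and late arrays spread over more than 2 log2 units.

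Tgfbr3, or betaglycan, the co-receptor that presents TGF-beta (above all Tgfb2) to the type II receptor, was lowest after ovariectomy and highest with estradiol on its brighter probe set (1369219_at, percentile 64.9). The signal was 5.32 and 5.20 in sham, 5.03 and 5.16 after ovariectomy, 5.71 and 5.37 with early estradiol, and 5.37 and 5.49 with late estradiol. The order of the means was early estradiol (5.54 ± 0.24), late estradiol (5.43 ± 0.08), sham (5.26 ± 0.08) and Ovx (5.09 ± 0.10, SD, n = 2 each), and early and late estradiol were the only pair of groups whose arrays overlapped. These differences were small, from -0.17 to 0.45 with a standard error of 0.37, and none reached 1.5-fold. Ovx was the lowest group under 14 of 14 alternative settings. Both Ovx arrays lay below the other 6, so most of these settings could hardly have changed this.

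The dimmer Tgfbr3 probe set (1387484_at, percentile 43.8) read 1.85 to 3.96 on arrays of replicate 1 but 4.53 to 5.37 on those of replicate 2, so that each group had 1 array in either range. It agreed in sign with the brighter probe set in 4 of 6 comparisons, and its standard error was 1.19. Read from it alone, sham and not Ovx was the lowest group.

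Ltbp2 belongs to the family of latent TGF-beta binding proteins, although it is known mainly as a protein of elastic microfibrils and does not bind the latent ligand as its relatives do. Its probe set (1368448_at, percentile 54.5) read 5.18 and 3.87 in sham, 5.10 and 4.53 after ovariectomy, 4.99 and 5.22 with early estradiol, and 4.76 and 3.25 with late estradiol. Both late estradiol arrays lay below both early estradiol arrays, while all other pairs of groups overlapped. The Ltbp2 difference between late and early estradiol was -1.10 ± 0.67, a 2.14-fold lower signal (95% interval from -2.60 to 0.40, limma unadjusted p = 0.133, adjusted p = 0.987).

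That Ltbp2 difference rested on replicate 2, at -1.97 within replicate number 2 against -0.23 within replicate number 1. Without late estradiol replicate 2 it was -0.34, and without late estradiol replicate 1 it was -1.88. The dimmest array was therefore not the one behind the low mean here, unlike for Tgfb3. On the deposited scale Ltbp2 read 12.54 on late estradiol replicate 2 and 61.35 on early estradiol replicate 2, and 14.96 and 21.61 on the respective replicate 1 arrays.

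The CCN targets differed in how they spread. Ccn2, a matricellular protein that TGF-beta, stretch and YAP induce, read 8.94 and 9.09 in sham, 8.27 and 9.09 after ovariectomy, 9.83 and 8.81 with early estradiol, and 9.72 and 9.05 with late estradiol (1367631_at, percentile 96.3). The replicate 2 arrays lay within 8.81 to 9.09 and showed no separation of the groups. The replicate 1 arrays spanned 8.27 to 9.83, with Ovx lowest and both estradiol groups highest. Group means followed the order late estradiol (9.39 ± 0.47), early estradiol (9.32 ± 0.71), sham (9.01 ± 0.11) and Ovx (8.68 ± 0.58, SD, n = 2 each), and every pair of groups overlapped. Differences ran from -0.33 to 0.71 with a standard error of 0.37, and without Ovx replicate 1 sham, not Ovx, had the lowest mean.

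Ccn1 (Cyr61), the immediate early relative of Ccn2 that binds integrins, showed little difference between groups. It read 4.85 and 5.16 in sham, 4.58 and 5.27 after ovariectomy, 5.08 and 5.23 with early estradiol, and 4.82 and 5.10 with late estradiol (1368290_at, percentile 60.2). The group means spanned 0.23, all groups overlapped, and differences ran from -0.19 to 0.23 with a standard error of 0.44. Every group had its higher value on replicate 2.

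**Figure D3:**
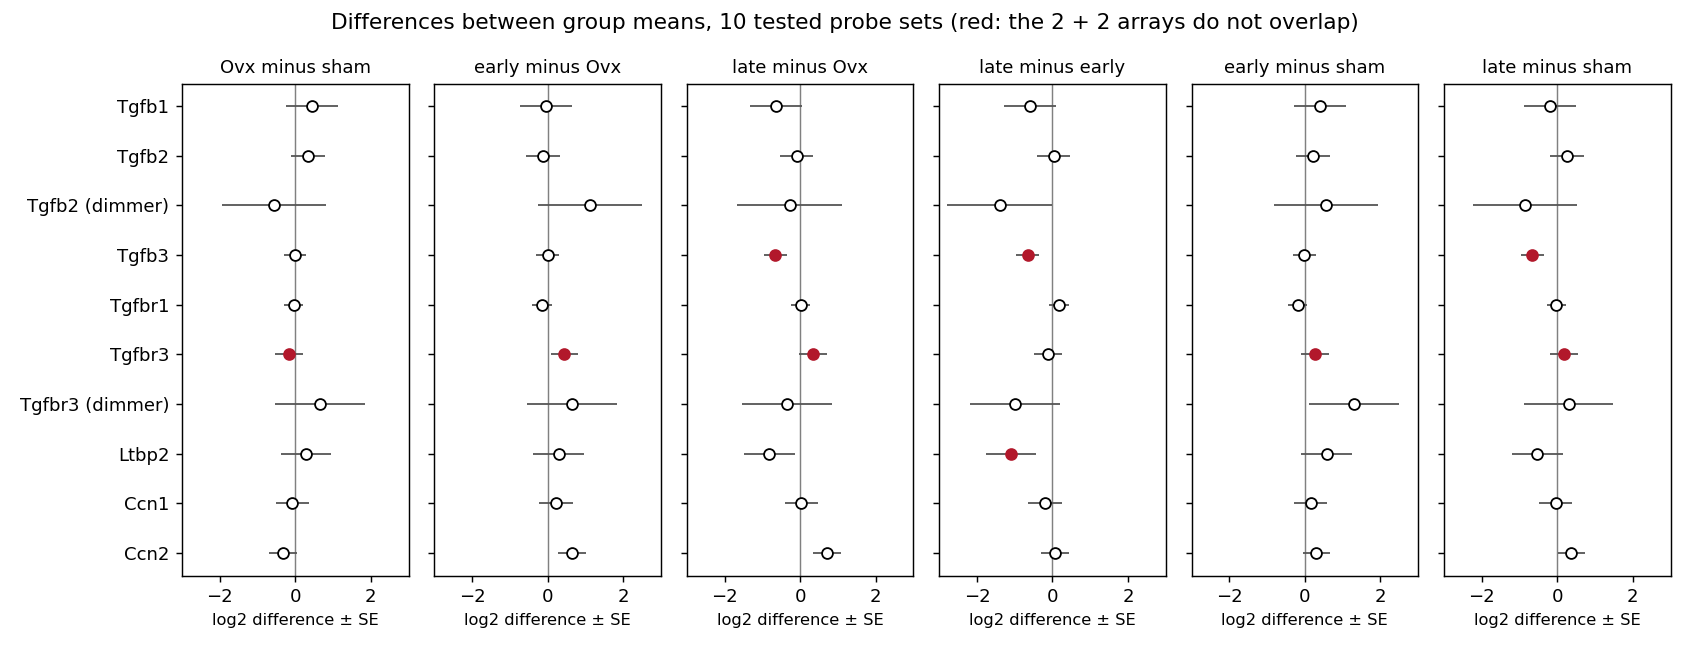
Log2 differences of group means (horizontal axis) with moderated standard errors for the 10 tested member probe sets (rows) in the 6 pairwise comparisons (panels); red points mark differences where the 2 arrays of each group do not overlap. Tgfb3 is marked in the 3 comparisons with late estradiol, at -0.66, -0.65 and -0.66, Ltbp2 in late against early estradiol, at -1.10, and the brighter Tgfbr3 probe set in 5 comparisons.

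Counted over members, between 0 and 2 of 10 in each direction had arrays that did not overlap, shares near the background of all probe sets given in brackets. For Ovx against sham, 0 of 10 were higher (background 11.0%) and 1 was lower (14.1%), Tgfbr3. For early estradiol against Ovx, 1 was higher (14.7%), Tgfbr3, and 0 lower (12.3%). For late estradiol against Ovx, 1 was higher (15.7%), Tgfbr3, and 1 lower (13.4%), Tgfb3. Late against early estradiol had 0 higher (15.5%) and 2 lower (16.3%), Tgfb3 and Ltbp2. Early estradiol against sham had 1 higher (12.1%), Tgfbr3, and 0 lower (12.7%), and late estradiol against sham had 1 higher (14.5%), Tgfbr3, and 1 lower (16.1%), Tgfb3.

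The median difference over the 10 tested members was -0.03 for Ovx against sham, where that of all probe sets was -0.03, with 4 higher and 6 lower. It was 0.26 for early estradiol against Ovx (all probe sets 0.02), with 6 higher and 4 lower, but 0.59 within replicate number 1 and -0.07 within replicate number 2, and -0.14 without Ovx replicate 1. For late estradiol against Ovx it was -0.18 (all probe sets 0.01), with 4 higher and 6 lower. Within replicate numbers 1 and 2 this was -0.01 and -0.34, and the sign turned without late estradiol replicate 1 (0.05) or without Ovx replicate 2 (0.38). In the refit without Ovx replicate 2 only 9 members were above the filter, so its median covers fewer probe sets. Early estradiol against sham had the most one-sided count, 8 higher and 2 lower at a median of 0.29 (all probe sets 0.00). This median was 0.27 and 0.10 within the replicate numbers, and 0.08 without sham replicate 2, where again only 9 members were above the filter. For late against early estradiol the median was -0.39 (all probe sets -0.01), with 3 higher and 7 lower, -0.29 and -0.16 within the replicate numbers and -0.10 without late estradiol replicate 1. For late estradiol against sham it was -0.03 (all probe sets -0.02), with 4 higher and 6 lower, and 0.02 and -0.20 within the replicate numbers. Pairs of probe sets of a gene are not independent in these counts.

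The rest of the pathway was read from 8 lists, with 95 distinct genes tested by their brightest probe set. As in the members, 0 passed in any pairwise comparison (limma, Benjamini-Hochberg). At an unadjusted p under 0.05 there were 4 of 95 for Ovx against sham (all probe sets 1.47%). Early estradiol against Ovx had 6 (1.71%), late estradiol against Ovx 8 (4.36%) and late against early estradiol 11 (3.87%). Against sham, early estradiol had 2 (0.773%) and late estradiol 7 (3.37%). Each share of the 95 lay above that of all probe sets. The members are too few, at such low background shares, for their lack of such genes to be a contrast with this. The 95 were also read from the brightest probe set of each gene, while all probe sets include dimmer ones. The lists were chosen with earlier results of these data known, and the excess over all probe sets was not tested. Signal transducers had a median near that of all probe sets: of 14 Smads and partners, 8 stood higher and 6 lower with late estradiol than after ovariectomy, at a median of 0.07 (all probe sets 0.01), and early estradiol gave the same split at a median of 0.05. The genes of smallest p were Tab2, an adaptor of the TAK1 kinase, at 0.36 ± 0.21, and Tgfbrap1, which binds inactive receptors, at -0.57 ± 0.55. In both the difference was larger on late estradiol replicate 1, where Tab2 read 8.74 against 8.25 on replicate 2 and Tgfbrap1 4.17 against 5.38.

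Genes that hold and release the latent ligands mostly stood lower with late estradiol, none past the test. Of 14 tested, 11 stood lower than after ovariectomy and 4 of these did so without overlap (background 13.4%), at a median of -0.29 (all probe sets 0.01). Against early estradiol, 11 stood lower and 6 of them without overlap (background 16.3%), at a median of -0.48. The genes of smallest p were Mmp2, a gelatinase able to release latent TGF-beta, at -0.74 ± 0.22 and Fbn1, the microfibril protein on which latent complexes are stored, at -0.50 ± 0.24 (limma adjusted p = 0.943 for both). Mmp2 read 7.28 and 7.33 on the late estradiol arrays, against 7.78 to 8.17 on the other 6. The list's median against Ovx was -0.24 within replicate number 1 and -0.32 within replicate number 2, and against early estradiol -0.75 and -0.07. The sum of the fibroblast markers was also lowest on the late estradiol arrays (3280 and 4250), and their part in the list's values was not tested. For early estradiol against Ovx, 9 stood higher and 5 lower, at a median of 0.11.

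Among targets of TGF-beta, 13 of 21 stood lower and 8 higher with late estradiol than after ovariectomy, 8 lower (background 13.4%) and 4 higher (background 15.7%) without overlap, at a median of -0.51 (all probe sets 0.01). That median was 0.07 within replicate number 1, with 11 of 21 higher, and -0.70 within replicate number 2, with 17 lower. Against early estradiol 18 stood lower, at a median of -0.56, and -0.96 and -0.39 within the replicate numbers. The genes of smallest p were the fibrillar collagen genes Col3a1, at -1.72 ± 0.19 (limma adjusted p = 0.0674), and Col1a1, at -1.71 ± 0.29 (adjusted p = 0.884). Of these targets, Col1a1, Col1a2, Col3a1 and Postn are also fibroblast markers, whose sum was lowest on the late estradiol arrays, and their part in the list's values was not tested.

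Of 15 inhibitors, 9 stood higher and 6 lower with late estradiol than after ovariectomy, at a median of 0.15, which was 0.25 within replicate number 1 and -0.05 within replicate number 2. The smallest p belonged to Dcn, a proteoglycan that can bind TGF-beta, at -0.36 ± 0.17 (10.69 and 11.12 on the late estradiol arrays, 11.16 to 11.35 on the other 6), and Ppm1a, a phosphatase that acts on Smad2 and Smad3, at -0.62 ± 0.30. Of 8 other receptors and co-receptors of the superfamily, 4 stood higher and 4 lower, at a median of 0.09 (0.53 and -0.41 within replicate numbers 1 and 2), with Bmpr1a, a type I receptor for BMP, at -0.82 ± 0.40, and Amhr2, the receptor of anti-Müllerian hormone, at -0.69 ± 0.46. Of 13 BMP, activin and GDF ligands, antagonists and Id genes, 5 stood higher and 8 lower, at a median of -0.07, with Inha, the inhibin alpha subunit, at -1.96 ± 0.94, and Id2, a BMP target, at -0.69 ± 0.41. Inha read 2.41 on late estradiol replicate 1, the dimmest array, and 6.13 on replicate 2, which lay inside the 5.83 to 6.68 of the other 6 arrays. Bmpr1a (4.83 against 5.96), Amhr2 (4.78 against 5.90) and Id2 (7.12 against 8.19) were likewise lower on late estradiol replicate 1 than on replicate 2.

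Targets of YAP and of serum response factor, which induce Ccn1 and Ccn2, differed little at the median. Of 12 tested, 9 were higher and 3 lower with late estradiol than after ovariectomy, at a median of 0.09 (all probe sets 0.01). Without overlap, 4 were higher (background 15.7%) and 1 lower (background 13.4%). With early estradiol 7 were higher and 5 lower than after ovariectomy, at a median of 0.14 (all probe sets 0.02). Without overlap, 5 were higher (background 14.7%) and 0 lower (background 12.3%). The genes of smallest p with late estradiol were Egr1, an immediate early transcription factor, at 0.87 ± 0.36, and Amotl2, an angiomotin that YAP induces, at 0.53 ± 0.24, with 8.94 on late estradiol replicate 1 and 8.23 on replicate 2. Of the other CCN proteins, Ccn3 alone passed the filter of 4 with a probe set, at 0.63 ± 0.63.

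**Figure D4:**
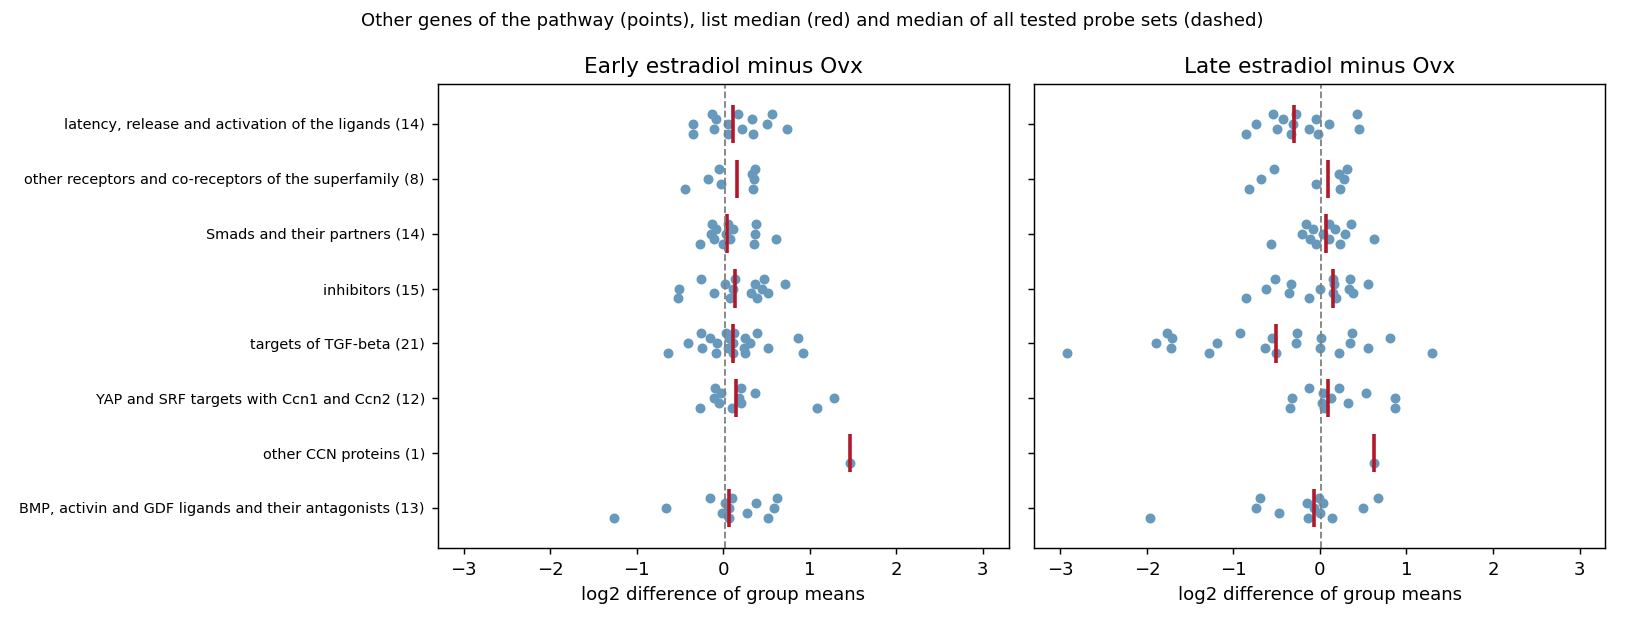
Log2 differences of group means (horizontal axis) for the tested genes of 8 pathway lists (rows, number of genes in brackets) with early (left) and late (right) estradiol against Ovx; red bars are list medians and the dashed line the median of all tested probe sets. With late estradiol the target list has a median of -0.51 and the latency list of -0.29, while with early estradiol both medians are 0.11. Within replicate number 1 the late estradiol median of the target list is 0.07.

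Among the brightest probe sets of the member genes, Ltbp2, Ccn2 and Tgfb3 had the widest spread of group means, and the patterns most like theirs were taken from 13922 tested probe sets with 1 gene name, by Pearson's r over the 8 arrays. Those closest to Tgfb3 were Kdm4b, a histone demethylase (r = 0.994), Pals2, a scaffold protein of cell junctions (r = 0.988), and Pigq, an enzyme of GPI anchor synthesis (r = 0.983). Closest to Ltbp2 were Tufm, the mitochondrial elongation factor (r = 0.960), Zmiz1, a transcriptional coregulator (r = 0.951), and Rrp1b (r = 0.949). Closest to Ccn2 were Polr3f, a subunit of RNA polymerase III (r = 0.969), Abhd13 (r = 0.961) and Elk4, a ternary complex factor that works with serum response factor (r = 0.959). These are the highest of many values over few arrays that also share a replicate number, and describe likeness only.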

How the data were processed

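Expression was measured in 8 rat heart RNA pools on single-colour Affymetrix arrays. Each array has 1 linear intensity for every probe set, deposited by the authors and computed with MAS5, per the submitters' processing notes. Neither its version nor its scaling target is given in the sources used here. Signals were converted to log2 and quantile normalized, since the deposited arrays differed in brightness. Of 31099 probe sets, 57 controls were left out, and the test took the 18625 whose mean log2 signal reached the 40th percentile. The precision is limited by the number of arrays.

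Gene symbols came from the platform annotation; all 11 member probe sets matched the RefSeq gene table (GRCr8) by Entrez number. The group means were estimated from all 8 arrays in limma (version 3.58.1, R 4.3.3), with an intensity trend and 4 residual degrees of freedom, and p-values were two-sided and adjusted by Benjamini-Hochberg over all tested probe sets. A member was named with a difference where its unadjusted p was under 0.05 or where the arrays did not overlap and the difference reached 1.5-fold. Other members are given by ranges. Of each pathway list, the 2 genes of smallest p for late estradiol against Ovx are named, and patterns like a member's are the 3 of highest r. The fit was tested on simulated data with independent errors of a common spread and no split by replicate number. Detection of changes was required there only at a spread smaller than that of these data. The members and lists were chosen with earlier results of these data known. Alternatives were no normalization, a common array median, 32 added before the log, no filter, no intensity trend, the replicate number as a block, and each array left out in turn.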

Additional observations from a re-analysis of the deposited data

How the results depend on the processing

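No member passed the threshold under any of the 14 alternatives, in any of the 6 pairwise comparisons or the F test (98 of 98 counts were 0). The 4 named differences kept their sign in 56 of 56 refits. This was largely fixed in advance, since they were named for arrays that do not overlap. In addition, no filter, no intensity trend and the replicate block leave the estimate itself unchanged. For Tgfb3 in late estradiol against Ovx, the refits gave -0.96 to -0.35 with an array left out. Under the other settings they gave -0.91 to -0.47. The values nearest 0 came without late estradiol replicate 1 and with 32 added before the log. With an array left out, the lone array of its group is assumed to vary like the other groups. For Ltbp2 in late against early estradiol the ranges were -1.88 to -0.34 and -1.41 to -0.43.

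The groups share the replicate numbers 1 and 2, and the step from replicate 1 to replicate 2 correlated between groups, over probe sets, at r = 0.28 to 0.33. With only 2 numbers this does not settle whether they pair the samples. With the replicate block the Tgfb3 difference from Ovx stayed at -0.66, with a standard error of 0.26 and a limma adjusted p of 0.609; 0 members passed, and over all probe sets 1 did in that comparison, against 0 without the block. The block did move the count of members at an unadjusted p under 0.05 from 0 to 1, Tgfb3, in each of the 3 comparisons with late estradiol. Without late estradiol replicate 2, 65 to 100 of all probe sets passed in the 3 comparisons with late estradiol, and 0 members. Late estradiol had the lowest Tgfb3 mean in 14 of 14 alternatives, Ovx the lowest Ccn2 mean in 13 and the highest Tgfb1 mean in 12. The Tgfb3 count was largely fixed in advance, since both late estradiol arrays lay below the other 6. The spread of a gene's 4 group means moved by more than the SD between arrays in 9 of 112 refits. Without normalization the median of all probe sets was -0.31 for late estradiol against Ovx. The dimmer probe sets of Tgfb2, Tgfbr1 and Tgfbr3 lie near the filter, and their values have the widest errors.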

Other observations

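Some further genes of the pathway lists are given as values. They were picked after their values were seen, form no list, and none passed (limma, Benjamini-Hochberg). Smad7, the inhibitory Smad, read 6.57 and 6.17 in sham, 5.59 and 5.78 after ovariectomy, 6.16 and 6.26 with early estradiol, and 6.42 and 6.08 with late estradiol, so that both Ovx arrays lay below the other 6. Skil, a corepressor that binds Smads, stood at -0.46 ± 0.23 for Ovx against sham, 0.39 for early and 0.35 for late estradiol against Ovx. Klf10, the TGF-beta inducible early gene, stood at -0.62 ± 0.32, 0.92 and 0.37 in the same comparisons, which share the Ovx arrays. Pmepa1, which TGF-beta induces and which limits Smad signalling, did not share that order: it read 7.14 and 6.80 in sham, 6.65 and 7.57 after ovariectomy, 7.16 and 7.28 with early estradiol, and 7.71 and 6.51 with late estradiol. Col3a1 read 9.91 and 9.74 in sham, 10.59 and 10.64 after ovariectomy, 10.21 and 9.75 with early estradiol, and 8.81 and 8.98 with late estradiol. Col1a1 read 7.98 and 8.31 after ovariectomy and 8.20 and 7.59 with early estradiol, and Col1a2 8.13 and 8.35 against 8.78 and 7.84, so that both Ovx arrays lay above both early estradiol arrays for Col3a1, while for Col1a1 and Col1a2 these groups overlapped. Both late estradiol arrays were the lowest of the 8 for Col1a1 (6.28 and 6.60), Col1a2 (7.26 and 6.85) and Col3a1.

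Ccn3, a relative of Ccn1 and Ccn2 that counters Ccn2 in several settings, read 7.76 on early estradiol replicate 1 and 5.71 on replicate 2, against 5.19 to 6.52 on the other 6 arrays. Its difference was 1.46 ± 0.63 for early estradiol against Ovx. Neutrophil markers (S100a8 and S100a9, 2 of 4 with a probe set) summed to 389.4 on early estradiol replicate 1, against 28.35 to 95.98 on the other 7 arrays; their part in the Ccn3 value was not tested. Mesothelial markers (4 of 5 with a probe set, Msln below the filter) summed to 109.0 to 173.1 over all arrays, and smooth muscle and pericyte markers (7 of 7, Cnn1 below the filter) to 1234 on that array against 749.4 to 912.6 on the others.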
